A study of Mus musculus with 18 samples.

Results

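The genes described here are 10 genes that mark microglia, the resident macrophages of brain and retina: Csf1r, P2ry12, Cx3cr1, Tyrobp, Trem2, C1qa, C1qb, C3ar1, Tnf and Aif1. They were chosen by name, and they are 10 of 21887 protein-coding genes for which a window (the gene and 2 kb on both sides, mm10) was laid over the chromatin accessibility data. The series compared cells given the transcription factors Ikzf1 and Ikzf4 with cells that were not, in mouse retina and in mouse fibroblasts, and holds 18 samples. For retina there was 1 multiome ATAC library (accessible DNA of single nuclei, cut out by a transposase and tagged with a barcode per nucleus) for each of 2 groups. The control came from retina of GLAST-CRE ERT2; RosaYFP mice on C57BL/6, a line whose tamoxifen-dependent Cre is driven from a gene active in Muller glia and astrocytes. It carried mCherry, and its cell type is given as Muller glia. The other library is labelled Ikzf1/4, and its labels repeat that title in place of a tissue, mouse line, strain and cell type. Both carry a note of tamoxifen and 14 days, while run names in both file headers carry 48 h, so the time is not settled. No sort is described for either library. For fibroblasts, the authors' own comparison of RNA was used: embryonic fibroblasts of R26-M2rtTA mice on C57BL/6, 48 h after doxycycline switched on lentiviral Brn2 and Myt1l in both groups, and Ikzf1 and Ikzf4 besides in 1 of them, with 3 libraries per group. Nothing in the labels says whether those 3 came from separate embryos or cultures, so their p-values measure the spread between these libraries only.

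Microglia do not arise from neural tissue: they descend from blood-forming progenitors of the yolk sac and depend on signals through the receptor Csf1r. Resting microglia survey the tissue with processes steered by the purine receptor P2ry12 and the fractalkine receptor Cx3cr1, clear lipid and debris through Trem2 and its signalling partner Tyrobp, and are a main source of the complement protein C1q. On activation they make cytokines such as Tnf. PU.1 and other ETS factors, whose binding sites contain a GGAA core, are known as main regulators of microglial genes, and Ikaros (Ikzf1) is itself a factor of the blood lineage.

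The sequences upstream of the gene starts were searched for motifs with the GGAA core and for other motifs. RefSeq promoters (GRCm38.p6) matched 7 of the 10 members. Csf1r, Tyrobp and C1qa had no entry. The 250 bases before the start are shown for the pair with the most fragments at the start (C1qb, Tnf), for the third member with the longer motif (P2ry12), and for a member with almost no fragments there (Aif1). All 4 lie on the minus strand and are written 5′ to 3′ toward the gene. Capitals mark GAGGAA or AGGAAGT on either strand, which can overlap each other.

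C1qb, chr4:136886201-136886450: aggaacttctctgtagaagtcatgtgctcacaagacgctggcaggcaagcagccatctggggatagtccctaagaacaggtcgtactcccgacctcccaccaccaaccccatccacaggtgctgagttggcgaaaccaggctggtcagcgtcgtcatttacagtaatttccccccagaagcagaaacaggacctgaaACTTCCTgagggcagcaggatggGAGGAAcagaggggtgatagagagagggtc
Tnf, chr17:35202008-35202257: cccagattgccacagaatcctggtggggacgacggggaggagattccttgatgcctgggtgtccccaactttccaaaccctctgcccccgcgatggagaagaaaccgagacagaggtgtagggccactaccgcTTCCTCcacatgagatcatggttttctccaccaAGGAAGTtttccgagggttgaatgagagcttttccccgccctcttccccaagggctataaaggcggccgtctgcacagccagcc
P2ry12, chr3:59262986-59263235: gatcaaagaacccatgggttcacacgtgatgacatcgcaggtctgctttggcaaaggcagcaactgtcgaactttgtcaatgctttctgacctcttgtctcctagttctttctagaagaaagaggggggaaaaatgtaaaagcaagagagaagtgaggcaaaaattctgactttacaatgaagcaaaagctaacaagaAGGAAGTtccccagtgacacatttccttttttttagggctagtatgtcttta
Aif1, chr17:35176053-35176302: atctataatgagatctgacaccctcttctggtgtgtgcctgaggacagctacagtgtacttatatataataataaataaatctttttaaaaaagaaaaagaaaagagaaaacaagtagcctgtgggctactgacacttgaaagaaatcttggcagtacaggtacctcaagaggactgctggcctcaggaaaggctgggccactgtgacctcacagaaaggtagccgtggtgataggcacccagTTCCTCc

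GAGGAA occurred in 4 of the 7 members' runs (Trem2, C1qb, Tnf, Aif1), and in 23.3% of 32817 promoters cut to the same length. AGGAAGT occurred in 3 of 7 (P2ry12, C1qb, Tnf) and in 7.69% of all. C1qb and Tnf held both. In C1qb GAGGAA stood 30 and AGGAAGT 53 bases before the start, and in Tnf GAGGAA stood 117 and AGGAAGT 84 bases before it. The AP-1 motif TGANTCA was found in Trem2 and C3ar1 (6.75% of all promoters), TATAAA in C3ar1 and Tnf (12.4%), and an interferon regulatory motif (a pair of GAAA boxes) in Aif1 (2.97%). Cx3cr1 held none of the 5 motifs in this stretch. C3ar1 held neither GAGGAA nor AGGAAGT, though it had more microglia-like fragments within 1 kb of its start than P2ry12 (30 and 23). Whether these motifs and fragments at the start go together was not tested.

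The libraries were of unequal size. The control held 52119123 unique fragments and the Ikzf1/4 library 29358834. Barcodes with 3000 to 90000 fragments numbered 1955 in the control (median 6248 fragments) and 745 in Ikzf1/4 (median 10682), and held 28.8% and 31.6% of each library's fragments. Kept barcodes of the libraries had 3 sequences in common. Barcodes were clustered without the member windows into 11 clusters. Muller glia-like clusters made up 32.5% of control barcodes and 17.0% of Ikzf1/4 barcodes. Most barcodes of the control thus lay outside the clusters named for its labelled cell type. Rod-like barcodes were 4.81% and 18.5%. A cluster of low enrichment at gene ends (a sign of poor accessibility signal) held 6.60% and 10.6%. With 1 library per group there is no test between libraries. Intervals are 95% exact intervals that cover counting error only.

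The members marked 1 cluster. It held 137 barcodes, in which all 14 of the naming markers of microglia (Ptprc, Spi1, Itgam and others, none of them a member) had at least 1.5-fold more fragments than in the rest, and it is called microglia-like. Its leading windows were immune genes, Ccl4, Cd83 and Ccl3 first. Folds for naming were taken after adding 5 CPM to both sides, over markers with at least 10 fragments in the cluster. On that scale 3 of 4 such T cell markers and 3 of 4 such B cell markers were also up. So were 2 of 3 pigment epithelium, 2 of 6 endothelial, 1 of 2 ganglion and 1 of 9 Muller glia markers. No list of other macrophages took part in the naming. None of the 5 neutrophil markers had 10 fragments there, so they could not be judged. The 10 windows together had 653 fragments per 1000000 fragments (CPM, the scale of every level in the retina below) in these barcodes and 61.4 in all others, a 10.6-fold difference (9.80 to 11.6). Of 16642 windows with at least 100 fragments, 2.23% were 4-fold or more over the other barcodes, with a median of 1.03, and 9 of the 9 members with that many fragments were. The clusters were made from these cells, so these folds describe the class and are no test of it.

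**Figure D1:**
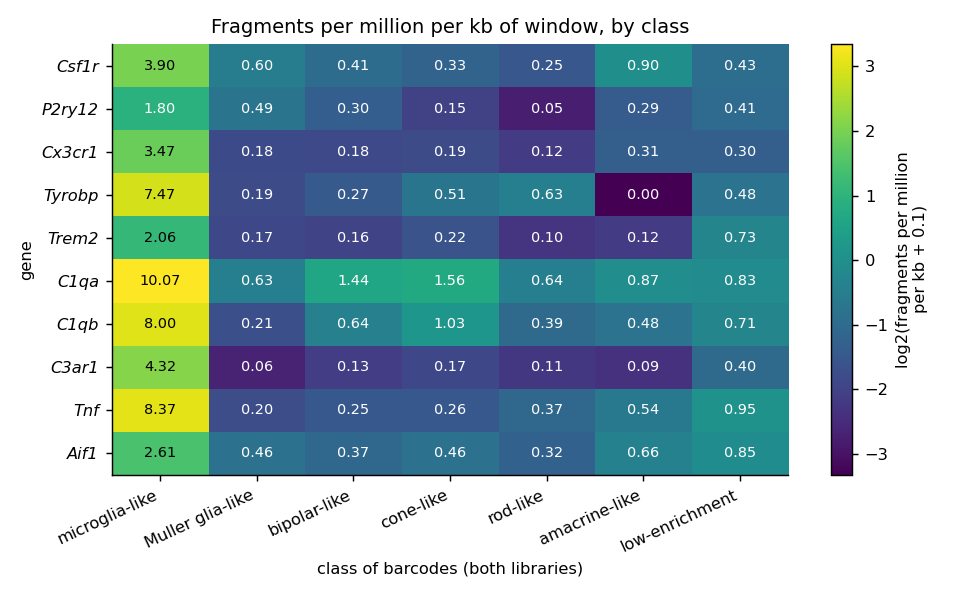
CPM per kb of window (number in each cell; colour on a log2 scale) for the 10 genes in each class of barcodes, both libraries together. The microglia-like column is the highest for every gene, from 1.80 for P2ry12 to 10.1 for C1qa, and Tyrobp is at 0 in the amacrine-like class.

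Of the receptors, Csf1r, which binds the growth factors Csf1 and Il34, had 115 CPM in microglia-like barcodes and 13.2 elsewhere, 8.75-fold (7.20 to 10.6). Outside the class it was highest in amacrine-like (26.5 CPM) and Muller glia-like barcodes (17.7) and lowest in rod-like barcodes (7.37). P2ry12, the receptor for ADP, had 91.5 CPM against 15.8, 5.80-fold (4.73 to 7.09). Its window was also occupied in Muller glia-like barcodes, at 25.1 CPM, and least in rod-like ones, at 2.46. Cx3cr1, the receptor for fractalkine, had 82.0 CPM against 4.74, 17.3-fold (13.2 to 22.6). C3ar1, the receptor for the complement fragment C3a, stood furthest apart at 56.2 against 2.06 CPM, 27.3-fold (18.8 to 39.9). Its Muller glia-like value was 0.760 CPM.

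Trem2, a lipid-sensing receptor, had few fragments: 20.3 CPM against 2.50, 8.12-fold (5.04 to 12.9). Its partner Tyrobp, the adaptor that carries the signal inside the cell, had 58.3 CPM against 2.72, 21.4-fold (15.3 to 30.2). The C1q chains differed in their background. C1qa had 69.8 CPM against 7.55 (9.24-fold) and C1qb 80.6 against 5.97 (13.5-fold), and both were higher in cone-like barcodes (10.8 and 10.3 CPM) than in Muller glia-like ones (4.37 and 2.09). Tnf, the cytokine, had 55.6 CPM against 2.46, 22.6-fold (15.9 to 32.3). Aif1, the actin-binding protein stained as Iba1, was the least separated at 23.7 against 4.43 CPM, 5.35-fold (3.53 to 7.93). Scaled to window length, the order in microglia-like barcodes was C1qa (10.1 CPM per kb), Tnf (8.37), C1qb (8.002), Tyrobp (7.47), C3ar1 (4.32), Csf1r (3.90), Cx3cr1 (3.47), Aif1 (2.61), Trem2 (2.06) and P2ry12 (1.80).

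Over the 11 clusters, the windows whose levels followed the summed members most closely were Fli1 (Pearson r = 0.979), Ccl4 (0.968), Ccrl2 (0.957), Sh2b2 (0.955) and Cd101 (0.949), of 14979 windows compared. Fli1 is an ETS factor and Ccl4 a chemokine. The clusters share 2 libraries and 1 of them is far above the rest, so these values are descriptive.

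Where the fragments lay differed among members. In microglia-like barcodes the 250 bp before the start of C1qb, the run printed above, were overlapped by 49 fragments (33.2 CPM), against 6 in all other barcodes (0.263 CPM). For Tnf the same stretch had 31 fragments against 2. In the 250 bp before their starts C3ar1 had 16 against 0 and Cx3cr1 11 against 2. In the 250 bp after its start Tnf had 32 fragments (21.7 CPM) against 4. C3ar1 had a further 21 fragments in the 250 bp centred 1375 bp into the gene. Trem2 had 2 fragments before its start and Aif1 had 1. The start was thus the best occupied place in C1qb and Tnf only, of the 7 members with a known strand, when 500-bp stretches were compared across the window.

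**Figure D2:**
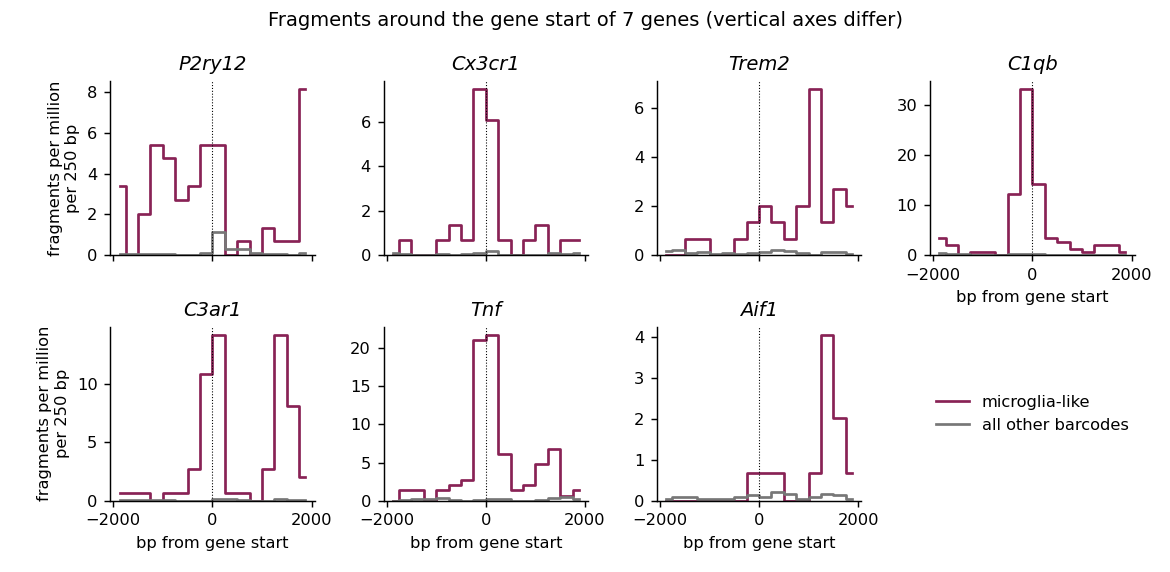
CPM of fragments overlapping each 250-bp stretch within 2000 bp of the gene start, for the 7 genes with a known strand, in microglia-like barcodes (purple) and all others (grey). C1qb reaches 33.2 CPM just before the start and Tnf 21.7 just after it, while Aif1 has 0.677 there. The vertical axes differ between genes.

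P2ry12 showed the clearest split between cell classes. In microglia-like barcodes its best occupied 500 bp was chr3:59228671-59229170, 34065 bp into the gene, with 37 fragments against 3 in all other barcodes. In bipolar-like barcodes 41 of 107 fragments of the window lay at chr3:59254471-59254970, and in Muller glia-like barcodes 28 of 132 lay at chr3:59250271-59250770. Microglia-like barcodes had 1 fragment at each of these places. The gene lies within the gene Med12l, so fragments of the window cannot be assigned to P2ry12 alone.

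In Csf1r the place was shared with Muller glia-like barcodes, but not with every class. Its best occupied stretch, chr18:61108372-61108871 in the gene body, was the same in both sets, with 59 fragments in microglia-like barcodes (40.0 CPM) and 45 in the others (1.97 CPM). Muller glia-like barcodes had 23 of their 93 Csf1r fragments in a stretch shifted by 100 bp, at 4.37 CPM. Csf1r is known to carry an enhancer in an intron, and whether this stretch is that element was not tested. In bipolar-like barcodes the best occupied Csf1r stretch was another, chr18:61129272-61129771, with 9 of 86 fragments. Microglia-like barcodes had 0 fragments at that place. For C1qa, C1qb and Aif1 the best occupied stretch in other cells lay at an edge of the window. Of the C1qb fragments of all other barcodes 62 of 136 lay at chr4:136878326-136878825, near the far end of the window. In cone-like barcodes 35 of 42 lay there, shifted by 200 bp, and in bipolar-like ones 13 of 46. Of the C1qa fragments of all other barcodes 89 of 172 lay at chr4:136893916-136894415, and of those of Aif1 40 of 101 lay at chr17:35168986-35169485. These edges were not occupied in other cells alone. Microglia-like barcodes had 29 of their 103 C1qa fragments there, 12 of 119 for C1qb and 2 of 35 for Aif1. In microglia-like barcodes the best place of C1qa was chr4:136898516-136899015 (42 fragments against 5). Tyrobp had 36 against 6 at chr7:30412782-30413281, in the flank at its lower-coordinate end. The window also touches Hcst, at the other end. Cx3cr1 had 25 against 8 at a point 13264 bp into the gene. The windows of C3ar1 and Tnf touch Foxj2 and Lta, and that of Csf1r touches Hmgxb3.

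Between the libraries, all 10 members had a lower CPM in Ikzf1/4 than in the control, as did 36.6% of 17895 windows with at least 50 fragments. P2ry12, Tyrobp, C3ar1, Tnf and Aif1 were lower by at least 1.5-fold, and no member was higher by that much. Among the same windows 5.85% were lower by 1.5-fold and 2.83% higher. The median ratio of Ikzf1/4 to control was 0.647 for the members and 1.07 for all windows. For Tyrobp the 1.5-fold difference was lost in the gene body alone (ratio 0.835, 0.426 to 1.57), and for Aif1 after thinning each barcode to 3000 fragments (0.762, 0.319 to 1.64). With at least 10000 fragments per barcode 9 members were lower by 1.5-fold, among them Tyrobp at 0.315 (0.196 to 0.493) and C3ar1 at 0.362 (0.219 to 0.583). For that minimum the share of all windows past 1.5-fold was not computed, so the 9 have no background to be set against. Within 1 kb of the gene start Tnf was at 0.279 (0.127 to 0.550), Cx3cr1 at 0.385 (0.113 to 1.05) and Aif1, on 13 fragments, at 0.294 (0.0317 to 1.35). In that setting 7 members were lower by 1.5-fold, and C1qa (0.735), Trem2 (0.862) and Csf1r (1.10) were not. For it too the share of all windows was not computed. Marker lists of other cell types moved as well. The median ratio was 0.612 for pericyte markers (4 of 7 lower by 1.5-fold), 0.686 for T cell markers (3 of 6) and 0.711 for endothelial markers (3 of 9), against 1.67 for rod markers (6 of 10 higher) and 1.52 for bipolar markers (6 of 11 higher). Their part in the members' ratios was not tested. Summed over the 10 windows, the level was 110.8 CPM in the control and 75.6 in Ikzf1/4, a ratio of 0.682 (0.624 to 0.746).

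**Figure D3:**
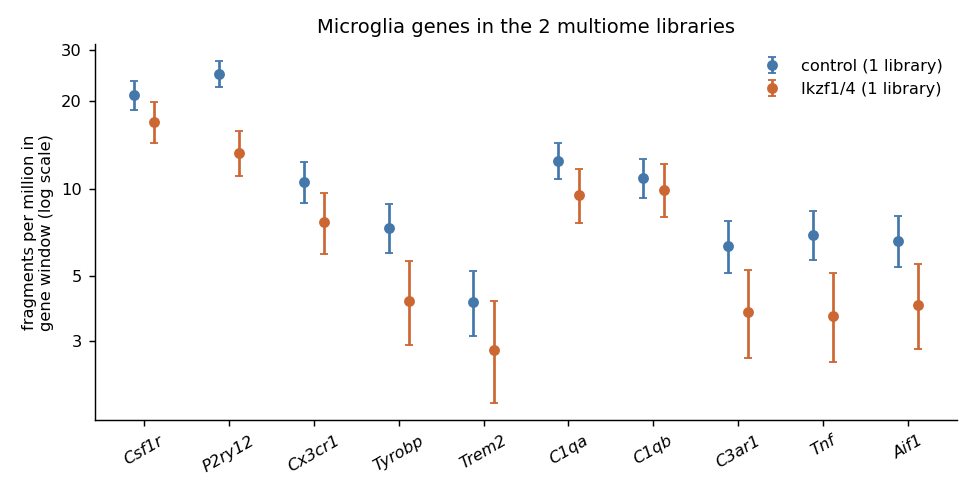
CPM in each gene window in the control (blue) and Ikzf1/4 library (orange), over barcodes with 3000 to 90000 fragments, on a log axis. Points are single libraries and bars are 95% exact Poisson intervals. Every orange point lies below its blue point, and the intervals of P2ry12, Tyrobp and Tnf do not overlap between the libraries.

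Among the receptors, P2ry12 had the lowest ratio, with 24.7 CPM in the control and 13.3 in Ikzf1/4 (ratio 0.536, 0.434 to 0.659). Csf1r had 20.9 and 16.9 CPM (0.811, 0.665 to 0.986), Cx3cr1 10.5 and 7.66 (0.727, 0.541 to 0.967), and C3ar1 6.34 and 3.78 (0.596, 0.392 to 0.886). Trem2 had 4.07 and 2.80 CPM (0.689), an interval of 0.418 to 1.11 that holds 1. Its partner Tyrobp had 7.34 and 4.10 CPM (0.559, 0.376 to 0.814). Of the secreted members, C1qb had 10.9 and 9.92 CPM, a ratio of 0.913 whose interval (0.699 to 1.19) also holds 1. Its ratio was 0.472 (0.275 to 0.776) within 1 kb of the gene start. With at least 10000 fragments per barcode it was 0.653 (0.475 to 0.896). Both were past 1.5-fold, with no share of all windows computed for either setting. C1qa had 12.5 and 9.49 CPM (0.761, 0.584 to 0.985), and Tnf 6.94 and 3.67 (0.529, 0.348 to 0.785). Aif1 had 6.60 and 3.99 CPM (0.604, 0.403 to 0.890). The intervals of 8 of the 10 ratios lay below 1, as did those of 14% of all windows.

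The number of microglia-like barcodes moved with these values. They were 119 of 1955 in the control (6.09%, 5.07 to 7.24) and 18 of 745 in Ikzf1/4 (2.42%, 1.44 to 3.79). They gave 44.9% of all member fragments in the control and 31.1% in Ikzf1/4. The size of the difference in share of barcodes depended on where the depth minimum was set. Among barcodes with at least 10000 fragments the share was 15.4% in the control and 2.50% in Ikzf1/4. After each barcode was thinned to 3000 fragments, 29 control barcodes (1.48%) and 7 Ikzf1/4 barcodes (0.940%) had fragments in at least 3 member windows, and all of them were microglia-like. Without thinning the counts were 115 (5.88%) and 32 (4.30%), of which 83 and 16 were microglia-like. At lower cuts the unthinned shares were higher in Ikzf1/4: 35.7% and 41.3% for at least 1 member window, 11.3% and 12.6% for at least 2. Thinned, they were lower in Ikzf1/4, at 20.4% and 14.1% for at least 1 and 4.14% and 2.15% for at least 2. Of these shares by number of member windows, only the thinned ones for at least 1 had intervals apart (18.6 to 22.3 and 11.7 to 16.8). All the others, for at least 3 included, had intervals that overlap. How many nuclei of each kind were loaded is not given, so a change in the retina and a change in what was captured cannot be told apart.

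Within microglia-like barcodes the members as a group were not lower. The 10 windows together had 611 CPM in the 119 control barcodes and 856 CPM in the 18 Ikzf1/4 barcodes, a ratio of 1.40 (1.20 to 1.63). Csf1r had 95.8 and 208 CPM (2.17, 1.54 to 3.03), and Cx3cr1 73.7 and 122 (1.65, 1.06 to 2.51). C3ar1 had 51.6 and 78.5 CPM, a ratio of 1.52 whose interval (0.872 to 2.55) holds 1. Of the 8 members with at least 50 fragments here these 3 were higher by at least 1.5-fold, and none was lower. Of 9100 windows in the same barcodes 12.6% were higher and 12.3% lower by that much. Aif1 was also at 2.20, on 35 fragments (0.972 to 4.66). P2ry12 was at 1.25, C1qa at 1.23 and C1qb at 1.15, Tnf at 0.987, Trem2 at 0.959 and Tyrobp at 0.778, and the intervals of all 6 hold 1.

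These barcodes were also deeper in Ikzf1/4, with a median of 14060 fragments against 9388. Thinned to 3000 fragments each, the ratio of the sum was 1.34 with an interval of 0.9502 to 1.85, and that of Csf1r was 1.32 (0.535 to 2.86), on 48 fragments. P2ry12 (0.715, 0.185 to 1.99) and C1qa (0.735, 0.143 to 2.39) then fell below 1, and Tnf rose to 1.32 (0.395 to 3.52). C1qb was at 2.20 (0.856 to 5.07), Aif1 at 6.61 on 4 fragments and Trem2 at 0 on 8. After thinning the interval of every member held 1. Single barcodes mattered for some members. For Csf1r 14 of 18 Ikzf1/4 barcodes had a Csf1r fragment, with at most 9 in 1 barcode, and 61 of 119 control barcodes did, with at most 4. Without the Ikzf1/4 barcode with the most Csf1r fragments the ratio was 2.02 (1.39 to 2.87). For Cx3cr1, 14 of 18 and 56 of 119 did, with at most 12 and 6 in 1 barcode. Without the barcode that held 12, the Cx3cr1 ratio was 1.09 (0.630 to 1.81). Without the Ikzf1/4 barcode richest in C3ar1, that of C3ar1 was 1.33 (0.716 to 2.33), so neither stayed past 1.5-fold. The part of depth in these ratios was not tested further.

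**Figure D4:**
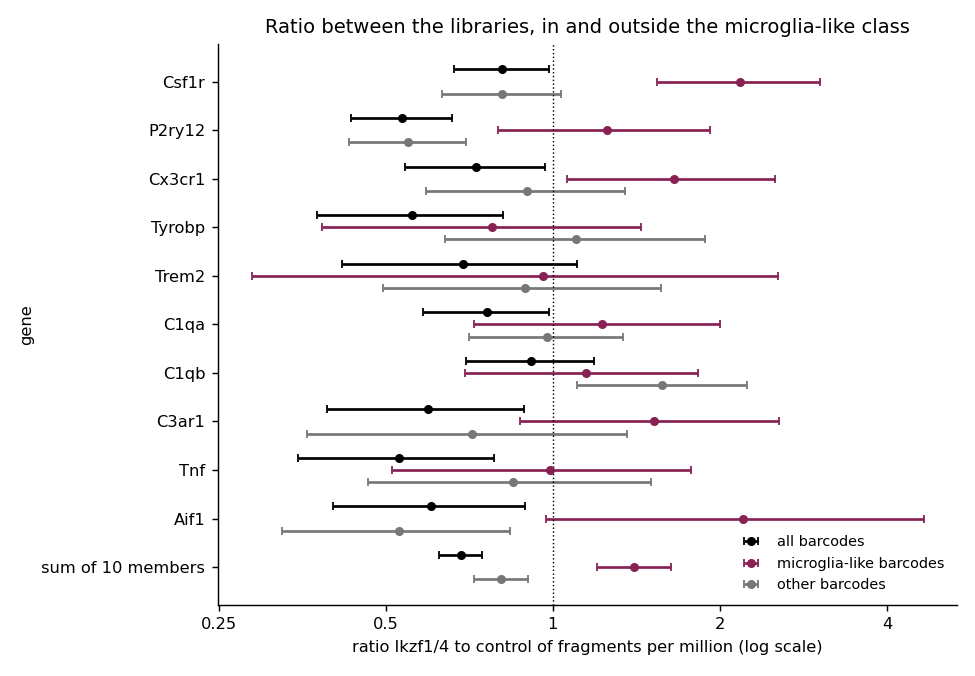
Ratio of Ikzf1/4 to control in CPM (log axis) for each gene and their sum, over all kept barcodes (black), microglia-like barcodes (purple) and all others (grey), with 95% exact intervals for counting error. For the sum the ratio is 0.682 over all barcodes, 1.40 within the class and 0.806 outside it.

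Outside the class the sum was 66.5 CPM in the control and 53.6 in Ikzf1/4, a ratio of 0.806 (0.721 to 0.901). P2ry12 had 19.2 and 10.5 CPM (0.550, 0.430 to 0.697) and Aif1 5.45 and 2.88 (0.529, 0.325 to 0.837), and both were lower by at least 1.5-fold, as were 5.76% of 17775 windows. C1qb went the other way, with 4.87 and 7.65 CPM (1.57, 1.11 to 2.23), while 3.25% of windows were higher by that much. The other 7 lay between 0.716 (C3ar1) and 1.10 (Tyrobp), with intervals that hold 1. Within classes P2ry12 was lower in Ikzf1/4 in low-enrichment barcodes (27.58 and 11.02 CPM, intervals apart). It was 10.3 and 4.39 CPM in cone-like, 16.9 and 12.4 in bipolar-like, 5.10 and 1.38 in rod-like and 25.3 and 24.4 in Muller glia-like barcodes, with intervals that overlap, and higher, at 13.8 and 19.2, in amacrine-like ones (2 fragments in Ikzf1/4). In Ikzf1/4 C1qb was higher in bipolar-like (5.25 and 8.23 CPM), low-enrichment (4.92 and 10.3) and rod-like barcodes (0 and 5.52). It was 10.3 and 10.4 CPM in cone-like barcodes and lower in Muller glia-like ones (2.25 and 1.57). In amacrine-like barcodes it was 4.13 and 9.62, on 1 fragment in Ikzf1/4. The C1qb intervals overlapped in each of these classes. The shares of the classes differed too. Muller glia-like barcodes, in which P2ry12 was high, were fewer in Ikzf1/4, and rod-like barcodes, in which it was low, were more. Cone-like barcodes, which carried C1qb fragments at the window's edge, were 13.2% and 18.5%. The part of these shares in the ratios was not tested. Without the low-enrichment cluster the ratio of the sum was 0.878 (0.775 to 0.994). C1qb then was at 1.47 (0.994 to 2.17), under 1.5-fold, and Aif1 at 0.615 (0.352 to 1.04). Cx3cr1 (1.08), C3ar1 (1.26) and Tnf (1.38) moved above 1, with intervals that hold 1.

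Genes that work with the members had a median ratio nearer to 1. Over all windows with at least 50 fragments 5.85% were lower and 2.83% higher by 1.5-fold, with a median ratio of 1.07. Of 12 ligands and partners 3 were lower by at least 1.5-fold and 0 were higher, with a median ratio of 0.831. The 3 were Plcg2 (0.644) and Syk (0.647), which signal below Trem2 and Tyrobp, and C1s1 (0.602), a protease of the C1 complex. C1qc, the third C1q chain, was at 0.770, Csf1 at 0.882 and Tnfrsf1b, a receptor for Tnf, at 0.780. Of 10 other genes of resting microglia 4 were lower and 0 higher (median 0.749), with Fcrls at 0.446 and P2ry13, a near relative of P2ry12, at 0.636. All 10 had at least 2-fold more fragments in microglia-like barcodes than elsewhere. Genes of other macrophages numbered 7 with enough fragments, 2 lower and 0 higher, Mrc1 at 0.653 and Cd74 at 0.658. Of these 7, 4 also had at least 2-fold more fragments in microglia-like barcodes, among them Ms4a7 (11.4-fold) and Cd74 (8.01-fold). So had 8 of 10 activation genes, and the trait was not particular to genes of resting microglia. Of 10 activation genes 1 was lower (Ccl2, 0.490) and 1 higher (Nos2, 1.56), and their median was 0.997. Of 8 myeloid regulators Ikzf1 itself was the 1 lower window (0.585), and Spi1, which encodes PU.1, was at 1.02. The Ikzf1 window had 138 CPM in microglia-like barcodes and 17.9 elsewhere. The 14 naming markers had a median of 0.855, with 3 lower.

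In fibroblast cultures RNA of the members was present, and little of it differed with Ikzf1 and Ikzf4. All values come from the authors' deposited table, whose mean is a normalised count over both groups that is not scaled to gene length. Of the 10 members C1qa alone passed the adjusted p of 0.05, and it was lower with Ikzf1 and Ikzf4 by a log2 fold change of -0.17 (SE 0.07, DESeq2 adjusted p = 0.0370) at a mean of 1943. Among the 16757 genes with an adjusted p, 30.6% passed, and 33.9% of the 9398 genes within the members' range of means. Log2 fold changes of the members ran from -0.27 to 0.24, with a median of -0.08, and that of all genes was 0.00. Regardless of sign, the median size of the change was 0.155 for the members and 0.151 for all genes. For the genes within the members' range of means it was 0.177. In a culture measured in bulk, fewer cells of a type and less RNA per cell cannot be told apart.

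**Figure D5:**
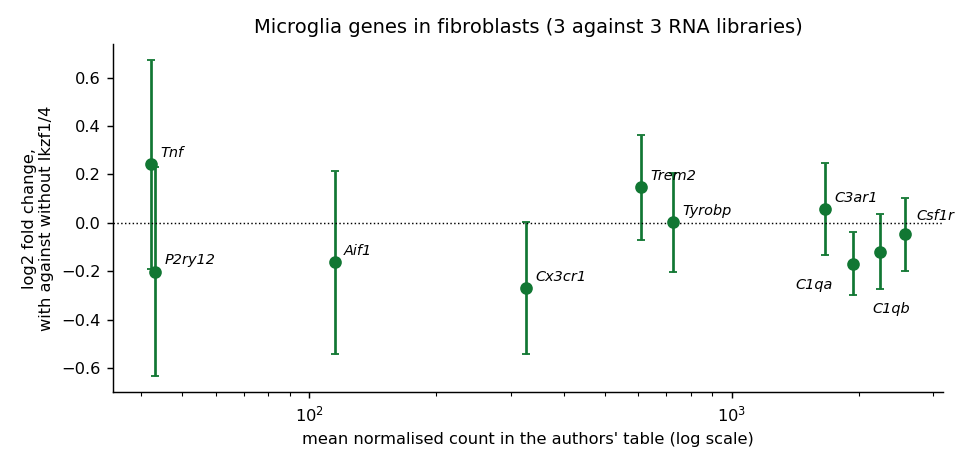
Log2 fold change with against without Ikzf1 and Ikzf4 in fibroblasts, from the authors' deposited table, against the mean normalised count (log axis) for the 10 genes. Bars are 95% intervals from the deposited standard errors, 3 against 3 libraries, and the bar of C1qa does not reach 0.

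By the authors' deposited table the receptors had means of 2580 for Csf1r (log2 fold change -0.05, SE 0.08), 1663 for C3ar1 (0.06, SE 0.10), 611 for Trem2 (0.15, SE 0.11) and 326 for Cx3cr1 (-0.27, SE 0.14, DESeq2 adjusted p = 0.138). P2ry12 had a mean of 43.2 (-0.20, SE 0.22). Tyrobp had a mean of 726 (0.00, SE 0.10) and C1qb of 2241 (-0.12, SE 0.08). Tnf had a mean of 42.2 (0.24, SE 0.22) and Aif1 of 115 (-0.16, SE 0.19). For Csf1r the 95% interval was a log2 change of -0.20 to 0.10. For comparison, the authors' deposited table gave Col1a1, a collagen of fibroblasts, a mean of 120151, and the blood cell marker Ptprc and the myeloid factor Spi1 means of 1168 and 380. Ptprc (-0.20, DESeq2 adjusted p = 0.109) and Spi1 (0.01, adjusted p = 0.981) did not pass. How many cells of the cultures carried this RNA was not tested.

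Around the members more genes passed in the authors' deposited table. Of 12 ligands and partners 5 were lower and 1 higher: Csf1, the ligand of Csf1r, by -0.28 (SE 0.06), Cx3cl1, the ligand of Cx3cr1, by -0.55 (SE 0.11), the C1 proteases C1ra by -0.84 and C1s1 by -1.16, and the receptor Tnfrsf1a by -0.17. Apoe, a ligand of Trem2, was higher by 0.33 (SE 0.08). Several of these are also made by fibroblasts themselves. C1qc, at a mean of 2159, was at -0.19 (DESeq2 adjusted p = 0.067). Among resting-microglia genes Fcrls was lower by -0.71 (SE 0.11). Of 6 genes of other macrophages Mrc1 (-0.44) and Ms4a7 (-0.29) were lower and F13a1 (0.98) higher, while Lyz2, at a mean of 13089, was at 0.04. Of 8 activation genes the chemokine Ccl2 was lower by -1.59 (SE 0.12) and Lgals3 higher by 0.55. Of 8 myeloid regulators Mef2c was higher by 0.51, and Ikzf1, supplied by the vector, by 7.76. The background of the same table was 15.4% of genes lower and 15.3% higher.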

How the data were processed

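The multiome fragments were made with cellranger-arc 2.0.1 on mm10, per the file headers. They list each unique fragment of a barcode with the count of read pairs behind it, as deposited by the authors (on average 4.59 read pairs per fragment in Ikzf1/4 and fewer in the control). Per the labels, the fibroblast comparison was made with DESeq2 by the authors. For each gene the authors deposited a normalised mean signal, a log2 change and its error, a Wald score (not used here), and p-values before and after adjustment. Whether the changes were shrunk is not stated. Per-library transcript estimates and fibroblast peak lists were not used: the sources do not pair transcripts with genes, and the peak coordinates run past the chromosome ends of mm10.

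From the fragments, counts were made per gene window (GRCm38.p6 gene table, gene and 2 kb on both sides) over barcodes with 3000 to 90000 fragments, and scaled to 1000000 fragments over those barcodes (CPM). No doublet caller was run. Clusters came from autosomal 5-kb bins without member, Ikzf1 or Ikzf4 windows (30 singular vectors, less those that follow depth, 20 neighbours, Leiden at resolution 1, leidenalg 0.10.2). They were named from marker lists, or called low-enrichment below a median enrichment of 4 at gene ends. Poisson and conditional binomial intervals are exact (scipy 1.17.1) and cover counting error only. A window counts as lower or higher past 1.5-fold. On simulated counts with known changes, the window ratios were tested before use. The text names the 10 members in full, up to 5 genes of each list (more where they passed the call), and the 5 windows most like the summed members. Members and lists were chosen with earlier results of these data known. Alternatives covered the window, the depth and enrichment minimum, scaling, thinning, clustering and, for fibroblasts, the threshold. Single-cell RNA data, those of the multiome included, were not analysed here. The fibroblast result of 1 listed gene is not reported here.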

Additional observations from a re-analysis of the deposited data

Results flagged for a closer look

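Barcodes with under 3000 fragments, which no comparison above uses, held a higher member level in Ikzf1/4 than in the control: 99.3 against 88.2 CPM, a ratio of 1.13 (1.06 to 1.20). Single members with an interval above 1 were C3ar1 (1.34), Trem2 (1.31), Csf1r (1.31) and P2ry12 (1.19). All of them were lower in Ikzf1/4 among the kept barcodes. Barcodes with over 90000 fragments (9 in the control and 17 in Ikzf1/4) went the other way, with 99.6 CPM in the control and 72.0 in Ikzf1/4, a ratio of 0.723 (0.621 to 0.842). In these small barcodes 4.07% of control and 3.98% of Ikzf1/4 fragments lay near gene ends, against 24.8% and 28.8% in the kept ones, and the median ratio of 20711 windows was 1.01.

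Within and outside microglia-like barcodes the ratio of Ikzf1/4 to control lay on opposite sides of 1 for the sum (1.40 within, 0.806 outside) and for 7 members. Csf1r was at 2.17 and 0.810, Aif1 at 2.20 and 0.529, Cx3cr1 at 1.65 and 0.898, and C3ar1 at 1.52 and 0.716. P2ry12 was at 1.25 and 0.550 and C1qa at 1.23 and 0.974, while Tyrobp went the other way at 0.778 and 1.10. With 1 library per group these differences were not tested. Without the low-enrichment cluster the outside ratios of Cx3cr1 (1.08) and C3ar1 (1.26) were above 1, on the same side as within. With each barcode thinned to 3000 fragments, the within ratios of P2ry12 (0.715) and C1qa (0.735) were below 1. That is the side of their unthinned outside ratios. The thinned within ratio of Tnf (1.32) was above 1, opposite its unthinned outside ratio (0.848). Without the low-enrichment cluster the outside ratio of Tnf (1.38) was above 1 too.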

How the results depend on the processing

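The summed ratio of Ikzf1/4 to control stayed below 1 under all 8 alternatives. It moved outside its counting interval within 1 kb of the gene start, to 0.573. For Csf1r, Tyrobp and C1qa, whose strand was not known, both gene ends were counted there. The summed ratio also moved with at least 10000 fragments per barcode, to 0.502. At that minimum 9 members instead of 5 were lower by 1.5-fold, with no share of all windows computed. The control's microglia-like share was then 15.4%. Of 80 values for single members 78 were below 1. Csf1r within 1 kb of its gene ends (1.10) and C1qb after thinning (1.13) were above. The microglia-like class shared 97.8% to 100% of its barcodes with the other clusterings, and 48.2% remained with at least 10000 fragments, where shallower barcodes drop out. In fibroblasts the 1 member passing fell to 0 at an adjusted p of 0.01 or with an absolute log2 fold change over 1. The outside ratio without the low-enrichment cluster and the ratio without 1 barcode were chosen after seeing the data. No paired analysis was possible because the fibroblast values per library are for transcripts that the sources do not pair with genes, and the multiome has 1 library per group. For the same reason no replicate was left out. Depth limits Trem2 most, with 87 fragments in all.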
